A study of Mus musculus with 6 samples.

Results

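The genes described here encode subunits of the mitochondrial respiratory complexes II, III, IV and V. They were taken from the array's gene symbols by name: the Sdh genes for complex II, names starting with Uqcr for complex III, Cox4 to Cox8 for complex IV, and Atp5 for complex V. The match gave 47 of the 19494 genes measured, with 4 in complex II, 8 in complex III, 18 in complex IV and 17 in complex V, each read by 1 probe set. Cox7a2l, which encodes a factor that joins complexes III and IV into supercomplexes, was matched by its name and is not a core oxidase subunit. Expression was measured on 6 1-colour Affymetrix arrays of regulatory T cells (Tregs) sorted from tumour-bearing colonic lamina propria of mice. Every mouse carried the Foxp3-RFP and GPR15-GFP reporters, and colorectal cancer had been induced in all of them with azoxymethane (AOM), a carcinogen, and dextran sulfate sodium (DSS), which injures the colon. CD4-stained RFP+ cells were split by green fluorescence into GPR15-GFP+ and GPR15-GFP- fractions, with 3 arrays each, so both fractions share genotype, tumour treatment and tissue. Samples in each fraction are numbered 1, 5 and 6. The labels used here give no age, sex or strain, and do not say whether a number stands for 1 mouse or a pool.

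The respiratory chain passes electrons from nutrients to oxygen across the inner mitochondrial membrane and pumps protons as it does so. Complex II (succinate dehydrogenase) feeds electrons from the citric acid cycle into the ubiquinone pool. Complex III (the cytochrome bc1 complex) passes them on to cytochrome c, and complex IV (cytochrome c oxidase) hands them to oxygen. Complex V is the ATP synthase, which uses the proton gradient to make ATP. Tregs are known for a high reliance on oxidative phosphorylation. Several complex IV subunits exist as alternative isoforms, a ubiquitous one and others known mainly from lung, heart and skeletal muscle, or testis.

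All values are log2 signals, and every difference is GPR15+ minus GPR15- on that scale, so that 1 unit is a doubling. None of the 47 members passed limma's test after Benjamini-Hochberg adjustment over all genes, at a threshold of 0.05 (smallest adjusted p = 0.773). Among all genes 0% passed. In such bulk samples fewer cells of a type and less RNA per cell cannot be told apart. At an unadjusted p under 0.05, 1 of the 47 stood below 0 (Cox4i2) and 0 above, against 6.23% of all genes in either direction. With the replicate number as a block the same member count was 1, against 12.4% of all genes. Members whose 3 arrays of one fraction all lay above the 3 of the other numbered 1 for higher values in GPR15+ (Cox7a2l), where 4.12% of all genes did so. For lower values there were 2 (Cox4i2 and Cox8b), where 9.17% of all genes did so. The counts depended on a single array, since without GPR15+ replicate 1, 9 members had an unadjusted p under 0.05 and 21 lay higher in GPR15+ without overlap. With that array left out, 22.3% of all genes had such a p and 17.5% lay higher without overlap.

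Part of the members showed a split by number. In 26 of the 47 the difference lay below 0 in pair 1 and above 0 in pairs 5 and 6, a pattern that 13.5% of all genes showed. It was found in 2 of 4 members of complex II, 6 of 8 of complex III, 6 of 18 of complex IV and 12 of 17 of complex V. The median over the 47 was -0.25 in pair 1, 0.14 in pair 5 and 0.15 in pair 6, and 0.02 overall. Over all genes the medians were -0.03, -0.08 and -0.06 in the 3 pairs, and -0.06 overall. Whether the pairs differ from each other was not tested, since each is 1 array against 1 array.

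**Figure D1:**
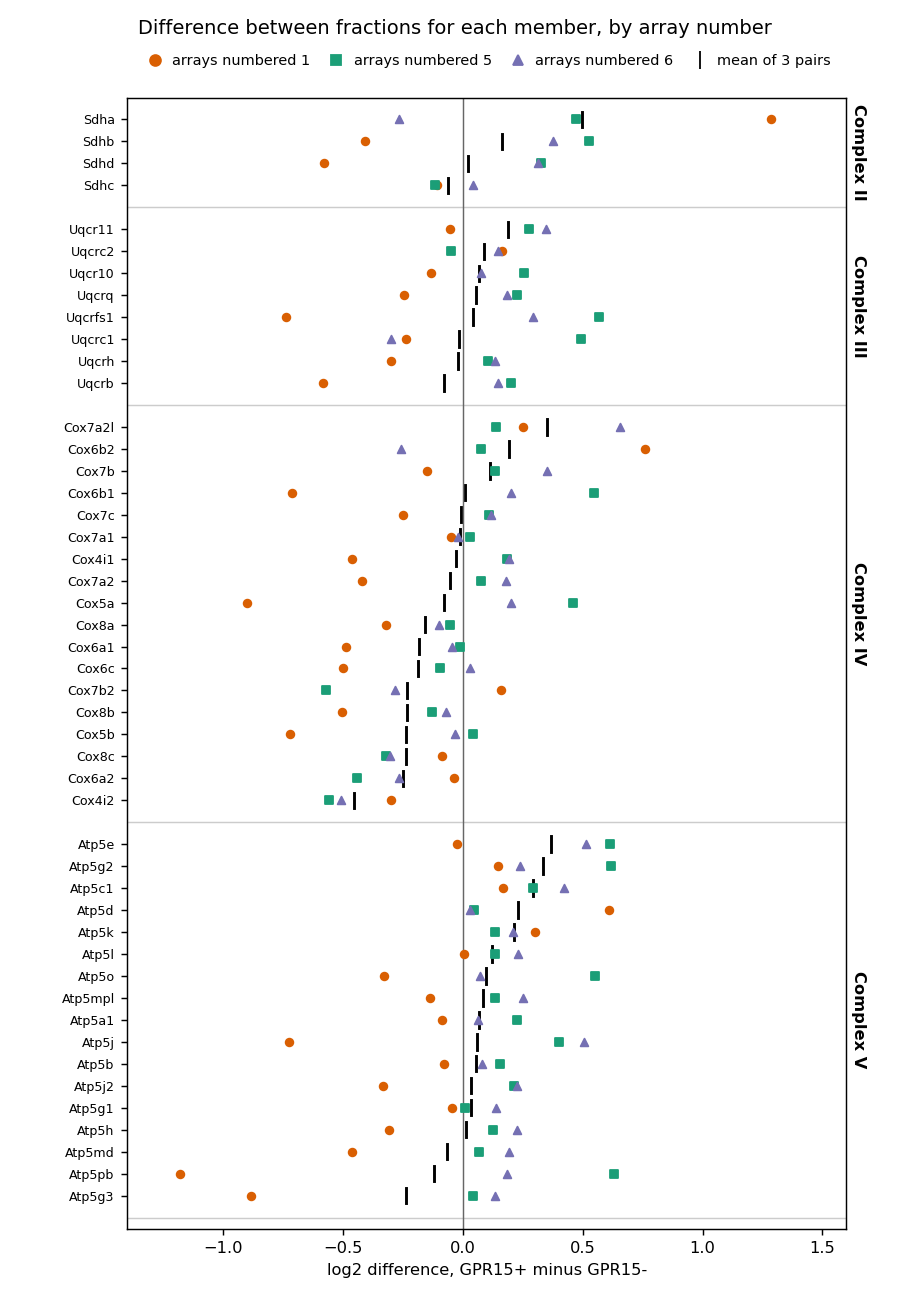
The log2 difference GPR15+ minus GPR15- (horizontal axis) of each of the 47 members (rows, grouped by complex), with 1 point for each pair of equally numbered arrays and a vertical tick for the mean of the 3 pairs. All 17 complex V points of pairs 5 and 6 lie above 0, while 12 of the 17 points of pair 1 lie below 0.

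Some facts about the arrays stand beside every value below. The SD over probe sets was 1.63 for each array numbered 1 and lay between 1.74 and 1.87 for those numbered 5 and 6. Of the 47 members 26 belonged to the brightest 10% of genes. With each array's trend on intensity removed, the median over the 47 went from -0.25 to -0.13 in pair 1. It went from 0.14 to 0.03 in pair 5 and from 0.15 to 0.07 in pair 6. Over all arrays it turned from 0.02 to -0.02, with 22 of the 47 above 0, where 26 were as deposited. Gpr15 itself differed by -0.65 ± 0.22 (SE), on the other side of 0 from what the fraction labels would give. It lay below 0 in each pair (-0.28, -1.26 and -0.43) and its fractions did not overlap (limma unadjusted p = 0.0172, adjusted p = 0.773). Directions here rest on the labels alone, and every sign printed would turn if the fraction labels were exchanged, which was not tested. The leukocyte gene Ptprc (0.15 ± 0.22, SE) and Cd4 (0.14 ± 0.27, SE) lay close to 0. All 11 measured T cell marker genes were among the brightest 10%. With 3 arrays a fraction the precision of each value is low, and an exact permutation test of 3 against 3 could not go below p = 0.1 (2-sided).

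Complex II had a median difference of 0.09 over its 4 members, with 3 above 0 and none that passed the test (smallest limma adjusted p = 0.778). Its median was -0.26 in pair 1, 0.40 in pair 5 and 0.18 in pair 6. The mean log2 level over its 4 genes was 7.16, 7.69 and 7.68 on the GPR15- arrays and 7.21, 7.99 and 7.80 on the GPR15+ arrays (numbers 1, 5 and 6 in that order, as throughout), lowest on both arrays numbered 1. Without GPR15+ replicate 1 the median was 0.30, and it was below 0 without GPR15+ replicate 6 (-0.14), GPR15+ replicate 5 (-0.06) or GPR15- replicate 1 (-0.01). Sdha, the flavoprotein that oxidises succinate, lay at 6.26, 6.95 and 6.72 in GPR15- and at 7.55, 7.42 and 6.45 in GPR15+. Its difference of 0.50 ± 0.32 (SE) was the largest of the 47 members, yet the fractions overlapped, because the array GPR15+ 6 lay below 2 of the GPR15- arrays. Its pairs lay at 1.28, 0.47 and -0.27, on the opposite side of 0 to most members in pairs 1 and 6 only. Array weights turned the difference to -0.17.

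Sdhb, the iron-sulphur subunit, lay at 7.68, 9.26 and 9.27 in GPR15- and at 7.27, 9.78 and 9.64 in GPR15+. The mean of both arrays numbered 1 differed from that of the other 4 by -2.01, beside 0.16 ± 0.71 (SE) between the fractions. The membrane anchor Sdhd lay at 7.17, 7.11 and 7.19 against 6.59, 7.43 and 7.51, so that the GPR15- arrays sat within 0.1 of each other and the GPR15+ arrays spread around them on either side. The other anchor, Sdhc, lay at 7.53, 7.46 and 7.54 against 7.42, 7.34 and 7.59, a narrow range on all 6 arrays, with a difference of -0.06 ± 0.16 (SE).

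Complex III had a median difference of 0.05 over 8 members, 5 of them above 0, and none passed (smallest limma adjusted p = 0.881). The median was -0.24 in pair 1, 0.24 in pair 5 and 0.15 in pair 6, and 6 of the 8 were below 0 in pair 1 and above 0 in both other pairs. The mean log2 level over the 8 genes was 9.50, 9.69 and 9.86 in GPR15- and 9.24, 9.95 and 9.99 in GPR15+. The sign of the overall median was not stable: it was -0.02 with quantile normalization repeated, -0.01 with the intensity trend removed, and -0.02 and -0.08 without GPR15+ replicates 5 and 6, but 0.29 without GPR15+ replicate 1. Uqcr11, a small subunit, had the largest difference, 0.19 ± 0.24 (SE), from 7.94, 8.18 and 8.32 in GPR15- and 7.88, 8.46 and 8.66 in GPR15+. The fractions overlapped, with both arrays numbered 1 at the bottom.

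Uqcrc2, a core subunit of the matrix side, lay at 8.25, 8.18 and 8.26 against 8.41, 8.13 and 8.40, a difference of 0.09 ± 0.16 (SE). It was the only member of complex III above 0 in pair 1. Uqcrb, which helps to form the ubiquinone site, lay at 10.23, 10.78 and 10.93 against 9.64, 10.98 and 11.08, and its difference of -0.08 ± 0.39 (SE) came from pair 1 alone (-0.58, against 0.20 and 0.15). The other 5 members were the core subunit Uqcrc1, the Rieske iron-sulphur protein Uqcrfs1, the hinge protein Uqcrh, and the small subunits Uqcr10 and Uqcrq. Their differences ran from -0.02 to 0.07. All 5 were below 0 in pair 1, most of all Uqcrfs1 at -0.74, which in pairs 5 and 6 lay at 0.57 and 0.29. Cyc1, the haem subunit of complex III that the name match leaves out, lay at -0.79, 0.28 and 0.18 in the 3 pairs, and was picked for mention after its values were seen.

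Complex IV was the one complex with an overall median below 0, at -0.12 over 18 members, with 14 below 0 and 4 above. Its median was -0.31 in pair 1, 0.04 in pair 5 and -0.03 in pair 6. The mean log2 level over the 18 genes was 9.14, 9.19 and 9.30 in GPR15- and 8.87, 9.16 and 9.30 in GPR15+, a mean over members that lay on both sides of 0 in pairs 5 and 6. It was -0.05 with arrays centred on their medians and -0.13 with the trend removed, and it turned to 0.05 without GPR15+ replicate 1 and to 0.05 with array weights. Without Cox7a2l the median of the 17 subunits was -0.16. The 18 members fall into 7 isoforms known as restricted to certain tissues and 11 others. All 11 others were among the brightest 10% of genes, and 0 of the 7 restricted isoforms were. The 11 others had medians of -0.46, 0.11 and 0.18 in pairs 1, 5 and 6. Without Cox7a2l, which is counted among these 11, they were -0.47, 0.09 and 0.15. For the 7 restricted isoforms the medians were -0.05, -0.32 and -0.27, and 0 of the 7 showed the split described above. With the intensity trend removed the 11 others had -0.34, -0.03 and 0.07, with 4 of the 11 above 0 in pair 5. The 7 restricted isoforms then had -0.04, -0.27 and -0.17. Whether these sets differ was not tested, nor was the part of their brightness.

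**Figure D2:**
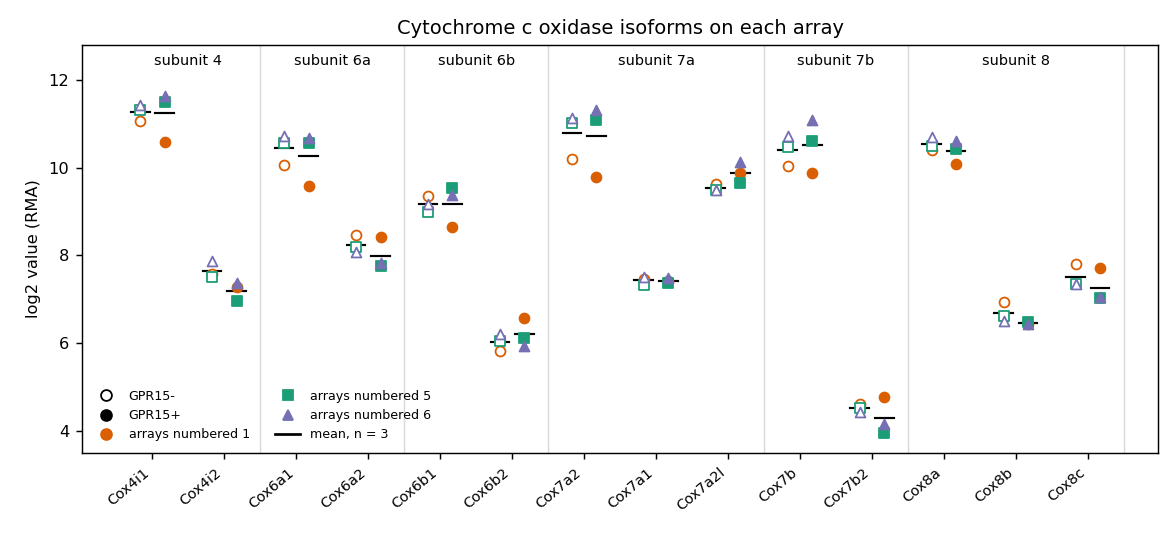
Log2 values (vertical axis) of the complex IV isoforms on each of the 6 arrays, with open symbols for GPR15- and filled ones for GPR15+, symbol shapes for the array numbers and bars for the means (n = 3). The 3 GPR15+ values of Cox4i2 lie below its 3 GPR15- values, and Cox4i1 overlaps between the fractions.

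Cox4i2, the isoform of subunit 4 known from lung and induced by low oxygen, lay at 7.57, 7.51 and 7.87 in GPR15- and at 7.27, 6.95 and 7.37 in GPR15+. The fractions did not overlap. The means were 7.65 ± 0.19 (SD, n = 3) and 7.20 ± 0.22 (SD, n = 3), a difference of -0.46 ± 0.19 (SE), or 1.37-fold lower in GPR15+. It lay below 0 in each pair, at -0.30, -0.56 and -0.51, where 23.6% of all genes were below 0 in all 3. The unadjusted p from limma was 0.0436 and the adjusted p 0.773. The unadjusted p was 0.0506 with the intensity trend removed, and the difference stayed between -0.54 and -0.33 under every alternative run. Cox4i1, the ubiquitous isoform, lay at 11.05, 11.31 and 11.44 against 10.59, 11.50 and 11.63, with a difference of -0.03 ± 0.29 (SE) and overlapping fractions. The 2 isoforms thus differed in sign in pairs 5 and 6 (0.18 and 0.19 for Cox4i1), which was not tested.

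Cox4i2 is also known from vascular support cells, and markers of stromal, endothelial and muscle cells are therefore given beside it. As deposited, 10 of the 13 measured marker genes on that list lay below 0, with a median of -0.11, beside 11535 of all 19494 genes. With the intensity trend removed the list's median was 0.02 and 7 of the 13 lay above 0. In mean level 10 of the 13 lay below the median of all genes. The list's mean log2 level ran from 5.98 to 6.18 in GPR15- and from 5.93 to 6.20 in GPR15+. The smooth muscle genes Myh11 and Acta2 differed by -0.29 ± 0.19 (SE) and -0.10 ± 0.16 (SE), and the pericyte receptor Pdgfrb by -0.17 ± 0.25 (SE). Lowest were the muscle gene Des at -0.41 ± 0.18 (SE) and the endothelial gene Cdh5 at -0.34 ± 0.16 (SE). Only 3 of the 13 lay above 0. They were endothelial Pecam1 (0.45 ± 0.38, SE), stromal Lum (0.43 ± 0.33, SE) and smooth muscle Tagln (0.08 ± 0.19, SE). In all 3 pairs 6 of the 13 lay below 0 and 2 above, where 23.6% and 13.4% of all genes did so. Without overlap 2 lay lower in GPR15+ and 0 higher, beside 9.17% and 4.12% of all genes. The genes named from this list were chosen after their values were seen. None of the 13 passed an unadjusted p under 0.05, and their part in the Cox4i2 value was not tested. The deposited values carry no detection call, so whether the dim isoforms were transcribed in these cells is not known here.

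Among the other restricted isoforms, Cox8b, a muscle form of subunit 8, lay at 6.94, 6.61 and 6.50 against 6.44, 6.49 and 6.43. Its fractions did not overlap, but only by the narrow step from 6.50 to 6.49, and the difference of -0.23 ± 0.17 (SE) came mainly from the array GPR15- 1. Cox6a2, the heart and muscle form of subunit 6a, lay at 8.45, 8.19 and 8.08 against 8.42, 7.75 and 7.82, a difference of -0.25 ± 0.22 (SE). In both fractions the array numbered 1 was the highest for this gene.

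Cox8c, a testis form, lay at 7.81, 7.34 and 7.35 against 7.72, 7.02 and 7.04, a difference of -0.24 ± 0.25 (SE). Cox7b2, another testis form, lay at 4.62, 4.51 and 4.44 against 4.77, 3.94 and 4.16, a difference of -0.23 ± 0.23 (SE). Both overlapped through the array GPR15+ 1. The muscle form Cox7a1 lay at 7.46, 7.33 and 7.51 against 7.41, 7.36 and 7.48, a difference of -0.01 ± 0.15 (SE). Cox6b2, a testis form, lay at 5.81, 6.05 and 6.20 against 6.57, 6.12 and 5.94, and was the only restricted isoform above 0 (0.19 ± 0.21, SE). Its pairs ran from 0.76 in pair 1 to -0.26 in pair 6.

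The ubiquitous partners of these isoforms overlapped between the fractions without exception. Cox6a1 lay at 10.06, 10.56 and 10.73 against 9.58, 10.55 and 10.68, with a difference of -0.18 ± 0.32 (SE). Cox6b1, which faces the intermembrane space, lay at 9.35, 8.99 and 9.17 against 8.64, 9.53 and 9.37, with -0.71 in pair 1, 0.55 in pair 5 and 0.20 in pair 6. These cancelled to 0.01 ± 0.26 (SE). Cox7a2 lay at 10.20, 11.02 and 11.13 against 9.78, 11.09 and 11.31, with both arrays numbered 1 lowest and a difference of -0.05 ± 0.43 (SE). Cox7b lay at 10.03, 10.47 and 10.72 against 9.88, 10.61 and 11.07 (0.11 ± 0.32, SE). Cox8a lay at 10.41, 10.49 and 10.70 against 10.09, 10.43 and 10.60 (-0.16 ± 0.19, SE). The 4 subunits with no alternative isoform here, Cox5a, Cox5b, Cox6c and Cox7c, differed by -0.24 to -0.01, and all 4 were below 0 in pair 1. Ndufa4, counted today with complex IV but outside the name match, lay at -0.80, 0.03 and 0.12 in the pairs, and was likewise mentioned after its values were seen.

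The supercomplex factor Cox7a2l lay the other way. Its values were 9.63, 9.50 and 9.48 in GPR15- and 9.88, 9.64 and 10.14 in GPR15+, without overlap, though the closest arrays were at 9.63 and 9.64. The difference was 0.35 ± 0.18 (SE), or 1.27-fold, and lay above 0 in each pair (0.25, 0.14 and 0.66), as 13.4% of all genes did in all 3. It did not pass (limma adjusted p = 0.773). With array weights it did, at 0.58 (limma adjusted p = 0.0377), a setting that gave the array GPR15+ 6 a weight of 6.56 and the array GPR15+ 1 one of 0.191, and under which 2174 genes (11.2%) passed. With the intensity trend removed its pair 5 lay at -0.03 and the fractions overlapped.

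Complex V had a median difference of 0.07 over 17 members, with 14 above 0, and none passed (smallest limma adjusted p = 0.773). All 17 lay above 0 in pair 5 and all 17 in pair 6, with medians of 0.16 and 0.21, while 12 lay below 0 in pair 1, where the median was -0.09. The mean log2 level over the 17 genes was 9.08, 9.42 and 9.55 in GPR15- and 8.88, 9.68 and 9.77 in GPR15+. The overall median was 0.37 without GPR15+ replicate 1 but -0.11 when GPR15+ replicate 6 was left out, -0.09 when it was GPR15- replicate 1 and -0.01 when it was GPR15+ replicate 5. It was 0.03 with the intensity trend removed and turned to -0.0048 with quantile normalization repeated. With the trend removed, 11 members were above 0 in pair 5, 14 in pair 6 and 7 in pair 1, the last up from 5.

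**Figure D3:**
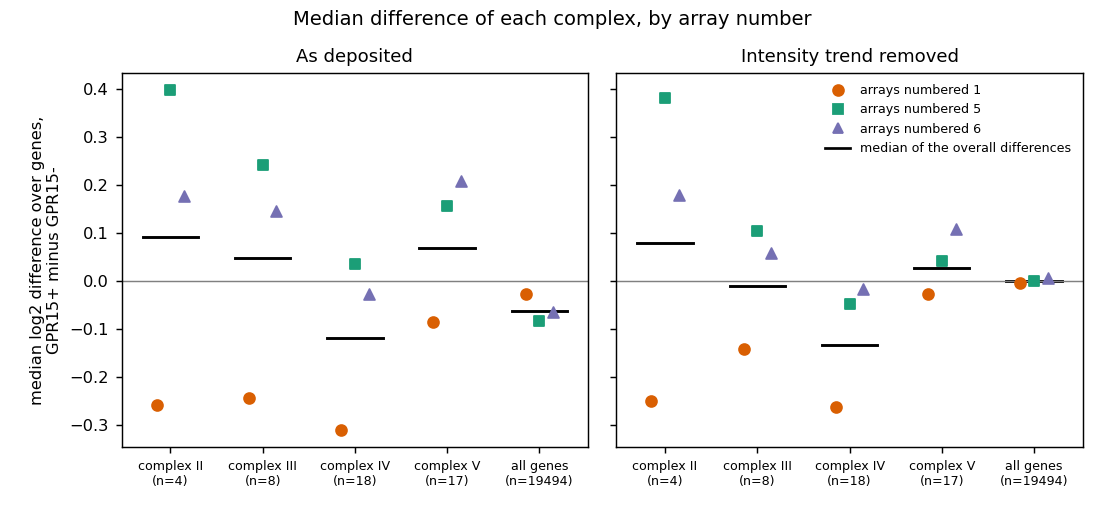
Median log2 difference GPR15+ minus GPR15- (vertical axis) over the genes of each complex and over all genes, for each pair of equally numbered arrays (points) and for the overall differences (bars), with the values as deposited on the left and with the intensity trend removed on the right. In both panels the 4 complexes lie below 0 in pair 1; on the right, complex III goes from 0.24 to 0.11 in pair 5 and complex V from 0.16 to 0.04.

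Within the ATP synthase the F1 head, which carries the catalytic sites, had a median of 0.23 over its 5 members, all above 0, but only 2 of the 5 lay above 0 in pair 1. The pair medians were -0.02, 0.23 and 0.08. Atp5e, the small epsilon subunit of the rotor stalk, lay at 8.30, 7.50 and 7.84 in GPR15- and at 8.28, 8.12 and 8.35 in GPR15+. Its difference of 0.37 ± 0.23 (SE) was the largest of complex V, and the fractions overlapped because of the array GPR15- 1. Atp5c1, the gamma subunit that forms the turning shaft, lay at 5.77, 6.04 and 6.07 against 5.94, 6.34 and 6.49, a difference of 0.29 ± 0.20 (SE) that was above 0 in each pair (0.17, 0.29 and 0.42). The catalytic beta subunit Atp5b and the alpha subunit Atp5a1 lay within 0.23 of 0 in each pair. Atp5b ran from 10.29 to 11.70 in GPR15- and from 10.21 to 11.78 in GPR15+, and the mean of both arrays numbered 1 differed from that of the other 4 by -1.46.

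The c ring, which turns as protons pass, is encoded by 3 genes whose precursors differ while the mature protein is the same. Atp5g2 lay at 8.12, 8.10 and 8.40 against 8.26, 8.72 and 8.64, a difference of 0.34 ± 0.19 (SE) that was above 0 in each pair (0.15, 0.62 and 0.24). Atp5g1 lay at 8.84, 8.98 and 9.17 against 8.79, 8.99 and 9.31, a difference of 0.03 ± 0.20 (SE) with fractions that overlapped almost fully. Atp5g3 lay at 9.61, 10.14 and 10.27 against 8.73, 10.18 and 10.40, and its difference of -0.24 ± 0.43 (SE) came from pair 1 (-0.88). All 3 lay above 0 in pairs 5 and 6, none passed the test, and their differences from each other were not tested.

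The peripheral stalk, which holds the head still, comprised Atp5pb, Atp5h, Atp5j and Atp5o, and all 4 were below 0 in pair 1 and above 0 in pairs 5 and 6 (medians -0.53, 0.48 and 0.20). Atp5pb spanned the widest range, from 7.03 to 8.02 in GPR15- and from 5.85 to 8.24 in GPR15+, with pair differences of -1.18, 0.63 and 0.18. The small membrane subunits Atp5j2, Atp5k, Atp5l, Atp5md and Atp5mpl had medians of -0.14, 0.14 and 0.22 in the 3 pairs. Atp5k was above 0 in each, at 0.30, 0.14 and 0.21, and Atp5d, the delta subunit of the head, likewise at 0.61, 0.04 and 0.03, mostly from pair 1. In all, 5 of the 17 were above 0 in every pair, Atp5l by less than 0.01 in pair 1. The 12 members of complex V not given in full above differed overall by -0.12 to 0.23.

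Nuclear respiratory factor 1 (NRF1) is known to bind promoters of many respiratory genes at a palindrome, GCGCATGCGC. The promoter window searched ran from 250 bases before to 50 after each gene's start in RefSeq (GRCm38.p6). Members are counted here as genes, and the share over all is of windows, of which a gene can have several. The units are thus unlike. Of the 47 members 36 had a window. Beside 0.971% of 32851 windows in all, 4 of these 36 members held the palindrome (Atp5g2, Atp5k, Cox6a1 and Uqcrc1). They are shown because genes with the motif lay on both sides of 0: Atp5g2 and Atp5k were above 0 in each pair, and Cox6a1 was below 0 in each (-0.49, -0.01 and -0.05), with none past the test. Its reverse complement is the same letters, so 1 search covers both strands. The stretches run 5′ to 3′ on the gene's strand, with the palindrome in capitals, and end at or before the start; that of Uqcrc1 lies after its start and is not printed.
Atp5g2 (chr15:102671048-102671134, minus strand): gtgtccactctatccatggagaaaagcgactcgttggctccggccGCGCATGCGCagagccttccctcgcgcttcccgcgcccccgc
Atp5k (chr5:108434400-108434494, minus strand): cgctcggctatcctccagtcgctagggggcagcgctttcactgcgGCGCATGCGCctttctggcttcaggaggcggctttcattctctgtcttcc
Cox6a1 (chr5:115349066-115349165, minus strand): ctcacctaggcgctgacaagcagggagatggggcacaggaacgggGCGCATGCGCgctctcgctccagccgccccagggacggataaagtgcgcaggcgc

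The palindrome begins 42 bases before the start in Atp5g2, 50 in Atp5k and 162 in Cox6a1. A second motif, CCGGAAGT, is read by the factor GABP (also called NRF2) and was searched on both strands. It was found in 4 of the 36 members with a window (Atp5h, Cox8a, Uqcr11 and Uqcrh). Of all windows 3.89% held it, again an unlike unit. These matches describe letters in the windows and are not shown to be bound.

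The members' levels also went with the number of the array. In 25 of the 47 members both arrays numbered 1 lay below the other 4, where 15.8% of all genes did so. The mean of the arrays numbered 1 less the mean of the other 4 had a median of -0.22 in complex II, -0.35 in complex III, -0.17 in complex IV and -0.60 in complex V, against 0.09 over all genes. Complex V had 12 of its 17 members in this pattern, complex IV 8 of 18, complex III 4 of 8 and complex II 1 of 4. All 8 of complex IV came from its 11 unrestricted members, and 0 of its 7 restricted isoforms showed it. The pattern was not particular to complexes II to V. It was found in 23 of 36 complex I subunits, with a median of -0.56 on the same measure. Of the citric acid cycle enzymes 8 of 15 showed it (-0.36), and of the mitochondrial biogenesis genes 5 of 17 (-0.25). Outside mitochondrial genes, 5 of 9 Treg markers (-0.30) and 4 of 11 T cell markers (-0.25) did so. It was found in 0 of 17 epithelial, 0 of 14 macrophage, monocyte and granulocyte and 0 of 9 dendritic cell markers. B and plasma cell markers had 0 of 11, CD8 T and NK cell markers 0 of 12, and stromal, endothelial and muscle markers 1 of 13. Genes of like brightness were not set beside these counts. This split of the arrays was chosen after the values were seen, is confounded with whatever the number stands for, and was not tested.

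**Figure D4:**
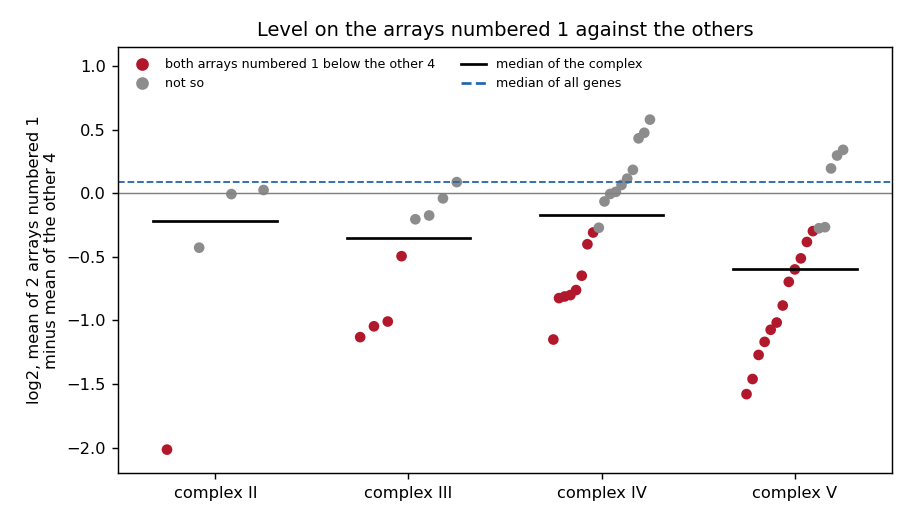
The mean log2 value of the 2 arrays numbered 1 minus the mean of the other 4 (vertical axis) for each member, by complex, with red points where both arrays numbered 1 lay below the other 4. The lowest point is Sdhb in complex II at -2.01, and the medians of the 4 complexes (bars) lie below that of all genes at 0.09 (dashed line).

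Other mitochondrial gene lists differed in how far they showed the split of the pairs. The 36 subunits of complex I, the entry point for electrons from NADH, had a median difference of 0.06, with -0.31, 0.25 and 0.23 in pairs 1, 5 and 6, and 19 of the 36 lay below 0 in pair 1 and above 0 in both others. Enzymes of the citric acid cycle (15 measured of 16) had medians of -0.11, 0.13 and 0.11 in the pairs and 0.03 over all arrays, with 3 of 15 in that pattern. Genes of mitochondrial biogenesis and mitochondrial DNA expression (17 of 19) had a median of 0.06, with -0.09, 0.15 and 0.01 in the pairs. Those of mitochondrial mass and protein import (17 of 17) had a median of 0.13, with -0.01, 0.20 and 0.16 in the pairs, so pair 1 lay at about 0. The electron carriers and ATP exporters (16 of 17) had a median of 0.02, with -0.12, -0.02 and 0.08, and pair 5 did not lie above 0. No gene of these 5 lists had an unadjusted p under 0.05 without the block, where 6.23% of all genes did. With the block 12.4% of all genes did so. By list, 3 of 17 of mass and import and 1 of 36 of complex I then lay above 0 at that threshold. Of the 16 electron carriers and exporters 2 lay above and 1 below. Biogenesis had 1 of 17 below, and the citric acid cycle 0 of 15.

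The assembly and maturation factors of complexes II to IV (33 of 37) had a median of 0.07, with 25 above 0, and medians of -0.22, 0.29 and 0.13 in the pairs. Of these 33 genes 2 had an unadjusted p under 0.05, beside 6.23% of all genes, and 3 with the block, beside 12.4%. Cmc1, a chaperone in the assembly of oxidase subunit 1, differed by 0.80 ± 0.23 (SE) and lay above 0 in each pair (0.36, 1.11 and 0.94). Cox15, which makes the haem A of the oxidase, differed by 1.33 ± 0.49 (SE), with 2.09, 1.11 and 0.80 in the pairs. Neither passed over all genes (limma adjusted p = 0.773 for both). The small list of ATP synthase assembly factors and regulators (5 of 10 listed symbols found) had a median of 0.18. Its pair medians of 0.11, 0.42 and 0.19 lay above 0, while of the 5 genes 3 lay above 0 and 2 below.

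Medians of several lists of other cells' markers lay below 0, as did 11535 of all 19494 genes. They were -0.24 for epithelial genes (14 of 17 below 0) and -0.15 for macrophages, monocytes and granulocytes (11 of 14). For dendritic cells the median was -0.26 (7 of 9) and for B and plasma cells -0.19 (7 of 11). With the intensity trend removed the medians of these lists were -0.13, -0.01, -0.15 and -0.07, in that order. Above 0 were then 4 of 17, 6 of 14, 3 of 9 and 5 of 11. As deposited, the medians were 0.01 for CD8 T and NK cell markers (12 genes), 0.15 for T cell markers and -0.06 for Treg markers (9 genes). The mean log2 level of the epithelial list ran from 6.31 to 6.45 in GPR15- and from 6.05 to 6.28 in GPR15+, and 0 of its genes were among the brightest 10%. Their part in the values of the respiratory genes was not tested.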

How the data were processed

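The authors deposited log2 values per probe set, made with RMA per the submitters' processing notes, which give no version. RMA corrects background, quantile-normalizes and summarises probes, so each array is tied to the others. The deposited arrays still did not share 1 distribution, with medians from 6.49 to 6.64 and SDs from 1.63 to 1.87. The sources used here name neither the array nor a build. Of 22142 probe sets 19527 had 1 gene symbol in the platform annotation, 2615 none and 0 several, which left 19494 genes after taking the brightest row of each. All genes entered 1 linear model without a block (limma 3.58.1, R 4.3.3, moderated by eBayes), and p-values were adjusted by Benjamini-Hochberg across the whole table. SE is limma's moderated one from this fit, so it includes the spread between array numbers. For Sdhb it was 0.71, and 0.21 with the block, while for Cox7c it was 0.160 and 0.163. The fit was checked on simulated data with independent noise for each gene and array. That check held no correlation between equal numbers and no intensity trend, and so does not cover these features of the real arrays.

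Deviations from the fraction means correlated at 0.567, 0.381 and 0.319 between arrays numbered 1, 5 and 6, each over 0.1. Equal numbers were treated as pairs in the pair differences by their shared title number. The main fit, with its SEs and p-values, left the pairing out, and the block was an alternative. Arrays 5 and 6 of opposite fractions correlated at 0.315 and 0.213, also over 0.1, so number 1 stands apart more than 5 from 6. The correlations therefore cannot decide whether 5 pairs with 5 and 6 with 6. The labels do not name separate animals, so p-values reflect the spread of these 6 samples alone, which may be technical.

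The members, lists and isoform groups were chosen with earlier results of these data known. Values on all 6 arrays were given for the Sdh genes, for isoform pairs, and in complexes III to V for the 3 largest differences and any member without overlap or with an unadjusted p under 0.05. Alternatives were a block, a filter leaving out the 40% dimmest genes, median centring, repeated quantile normalization, removal of the intensity trend (lowess, span 0.3), array weights, averaged rows, and leaving out arrays.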

Additional observations from a re-analysis of the deposited data

How the results depend on the processing

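No member and no gene passed after adjustment under any setting except array weights, where 2174 genes (11.2%) passed, 1 member among them (Cox7a2l, 0.58), and 11 members had an unadjusted p under 0.05, as did 33.5% of all genes; that fit weighted 1 array at 6.56, and its weight estimation stopped before it converged. With the replicate block the value of Cox4i2 was again -0.46 (limma adjusted p = 0.369), and the block changed no member's call. The complex V median was 0.26 with array weights. Members with an unadjusted p under 0.05 numbered 0 with the trend removed (5.84% of all genes) and 7 without both arrays numbered 1 (21% of all genes). With 1 array left out they numbered 0 to 9 (3.43% to 22.3% of all genes), those without overlap 1 to 21 for higher (6.56% to 17.5%) and 2 to 5 for lower values (11.7% to 30.3%), and the complex V median was -0.11 to 0.37. Without both arrays numbered 1, 25 lay higher and 5 lower without overlap, beside 21.4% and 34.7% of all genes. Centring left 1 lower (6.31% of all genes), and trend removal 0 higher (5.87%).

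The signs of many differences turned. With centring, Sdhc was 0.0092, Cox4i1 0.041, Cox7a1 0.056 and Cox7a2 0.015. With quantile normalization repeated, Cox6b1 was -0.14 and Atp5g1 -0.11. With the trend removed, Cox6b1 was -0.080, Cox7a1 0.024 and Atp5g1 -0.058. Array weights gave Sdha -0.17, Sdhc 0.049, Uqcrb 0.26, Cox4i1 0.25, Cox6a1 0.069, Cox6b2 -0.11, Cox7a1 0.037, Cox7a2 0.30 and Atp5g3 0.21. Without both arrays numbered 1, Uqcrb was 0.17, Cox4i1 0.19, Cox6b2 -0.093, Cox7a1 0.0049, Cox7a2 0.13 and Atp5g3 0.088. With 1 array left out, Sdhb ran from -0.36 to 0.98, Sdhd from -0.14 to 0.31, Uqcrb from -0.34 to 0.38, Cox4i1 from -0.22 to 0.30, Cox6a1 from -0.39 to 0.17, Cox6b1 from -0.17 to 0.28, Cox7a1 from -0.062 to 0.024, Cox7a2 from -0.35 to 0.42, Cox7b from -0.16 to 0.43, Atp5g1 from -0.11 to 0.15 and Atp5g3 from -0.55 to 0.28. The cause was not tested. For the 26 members given in full, 237 of 286 values under settings that can move a difference kept their direction and side of the threshold.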
